A study of Mus musculus with 4 samples.

Results

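The genes Fkbp5, Tsc22d3, Per1, Zbtb16, Sgk1, Dusp1, Klf9 and Nr3c1 are long-known targets of the glucocorticoid receptor, and Gata4 ChIP-seq peaks were collected around each of them. They were chosen by name, as 8 of the 22238 protein-coding genes placed on the mouse genome build mm9. A peak was counted as near a gene when its position lay within 5 kb of the gene body, which is also how the study named peaks for genes, and as in its surroundings when it lay within 50 kb. By this rule 25 of the 20410 peaks of the WT list and 40 of the 22733 peaks of the DKO list belonged to the 8 genes.

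The 4 libraries each stood for 1 condition, and none had a replicate. Both Flk1(+) libraries came from embryonic stem (ES) cells grown on OP9 stroma and sorted with magnetic beads, at day 4.5, for Flk1, a surface receptor of mesoderm, after 100 nM of dexamethasone (Dex, a synthetic glucocorticoid) for 3 hours. Undifferentiated ES cells of either genotype, given no Dex, supplied the WT ES and DKO ES libraries. All cells descended from the J1 line of the 129 background, and all carried Gata4GR, in which Gata4 is joined to the human receptor's ligand-binding domain and expressed from the CAG promoter. DKO cells were Dnmt3a-/-Dnmt3b-/- and so lacked the enzymes of de novo DNA methylation. Each genotype was a single clone, labelled J1G4.2 for the WT and 16G4.3 for the DKO Flk1(+) cells. A mixture of antibodies to Gata4 was used in every library, which does not tell the fusion from the cells' own Gata4.

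The glucocorticoid receptor waits in the cytoplasm with chaperones of the Hsp90 machine, enters the nucleus when it binds its ligand and attaches as a dimer to response elements made of a pair of inverted half-sites. Many of its targets close a feedback loop on the hormone or carry its anti-inflammatory and metabolic effects. In Gata4GR the ligand-binding domain is borrowed as a switch, so that the same ligand releases a factor whose zinc fingers read GATA sequences. The cells' own receptor, where present, can bind the ligand too, but its presence in these cells was not examined here. The question for these genes was whether the peaks of Dex-treated cells marked them and which kind of sequence lay under those peaks.

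The authors called the peaks of a Flk1(+) library against ES cells of its own genotype, so that Dex, differentiation and the change of cell type cannot be told apart in any of them. Each peak has a height in the Flk1(+) profile, a height in the ES profile and an enrichment, which is their ratio with an ES height below 1 taken as 1. The WT peaks of the 8 genes had a median height of 8.43, beside 7.74 for the whole WT list, and their median enrichment was 5.35, beside 4.53. For DKO the heights had medians of 8.29 near the 8 genes and 6.91 in the whole list, and the enrichments 4.71 and 4.37. The study's methods state more mapped reads for the DKO than for the WT Flk1(+) library. Whether heights were scaled to depth is not given in the sources used here, and the part of depth in the numbers of peaks and genes and in the heights was not tested. Gene expression was not analysed here, so the Flk1(+) identity of the cells was not checked against transcripts.

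Peaks lay within 5 kb of 4 of the 8 genes in the WT list and of 7 in the DKO list. The same distance caught 39.4% of all coding genes with WT peaks and 49.1% with DKO peaks. The WT set was Tsc22d3 with 2 peaks, Per1 with 4, Zbtb16 with 5 and Sgk1 with 1. The DKO set was Per1 with 7 peaks, Sgk1 with 4, Nr3c1 with 2, and Fkbp5, Zbtb16, Dusp1 and Klf9 with 1 each. Per1, Zbtb16 and Sgk1 had peaks of both lists, as had 31.9% of coding genes. Fkbp5, Dusp1, Klf9 and Nr3c1 had them in the DKO list only, and Tsc22d3 in the WT list only. Of all 22238 coding genes, 8763 had a WT peak within 5 kb, 10911 a DKO peak and 7092 peaks of both lists. Genes with a DKO peak only thus outnumbered those with a WT peak only over all coding genes as well.

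Within 50 kb the difference in the number of genes was gone, since 7 of the 8 had a WT peak and 7 a DKO peak. The background was then high, at 67.1% of coding genes for WT and 70.4% for DKO. The median number of peaks within 50 kb was 2 for WT and 2.5 for DKO over the 8 genes, and 1 and 2 over all coding genes. Nr3c1 was the gene without a WT peak at this distance, and its nearest stood 111 kb away. Tsc22d3 was the gene without a DKO peak, and its nearest stood 604 kb away. At the limits of the rule, the farthest peak counted was a WT peak 49486 bp from Per1, and the nearest one left out was a DKO peak of height 6.31 that lay 50.6 kb from Sgk1.

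**Figure D1:**
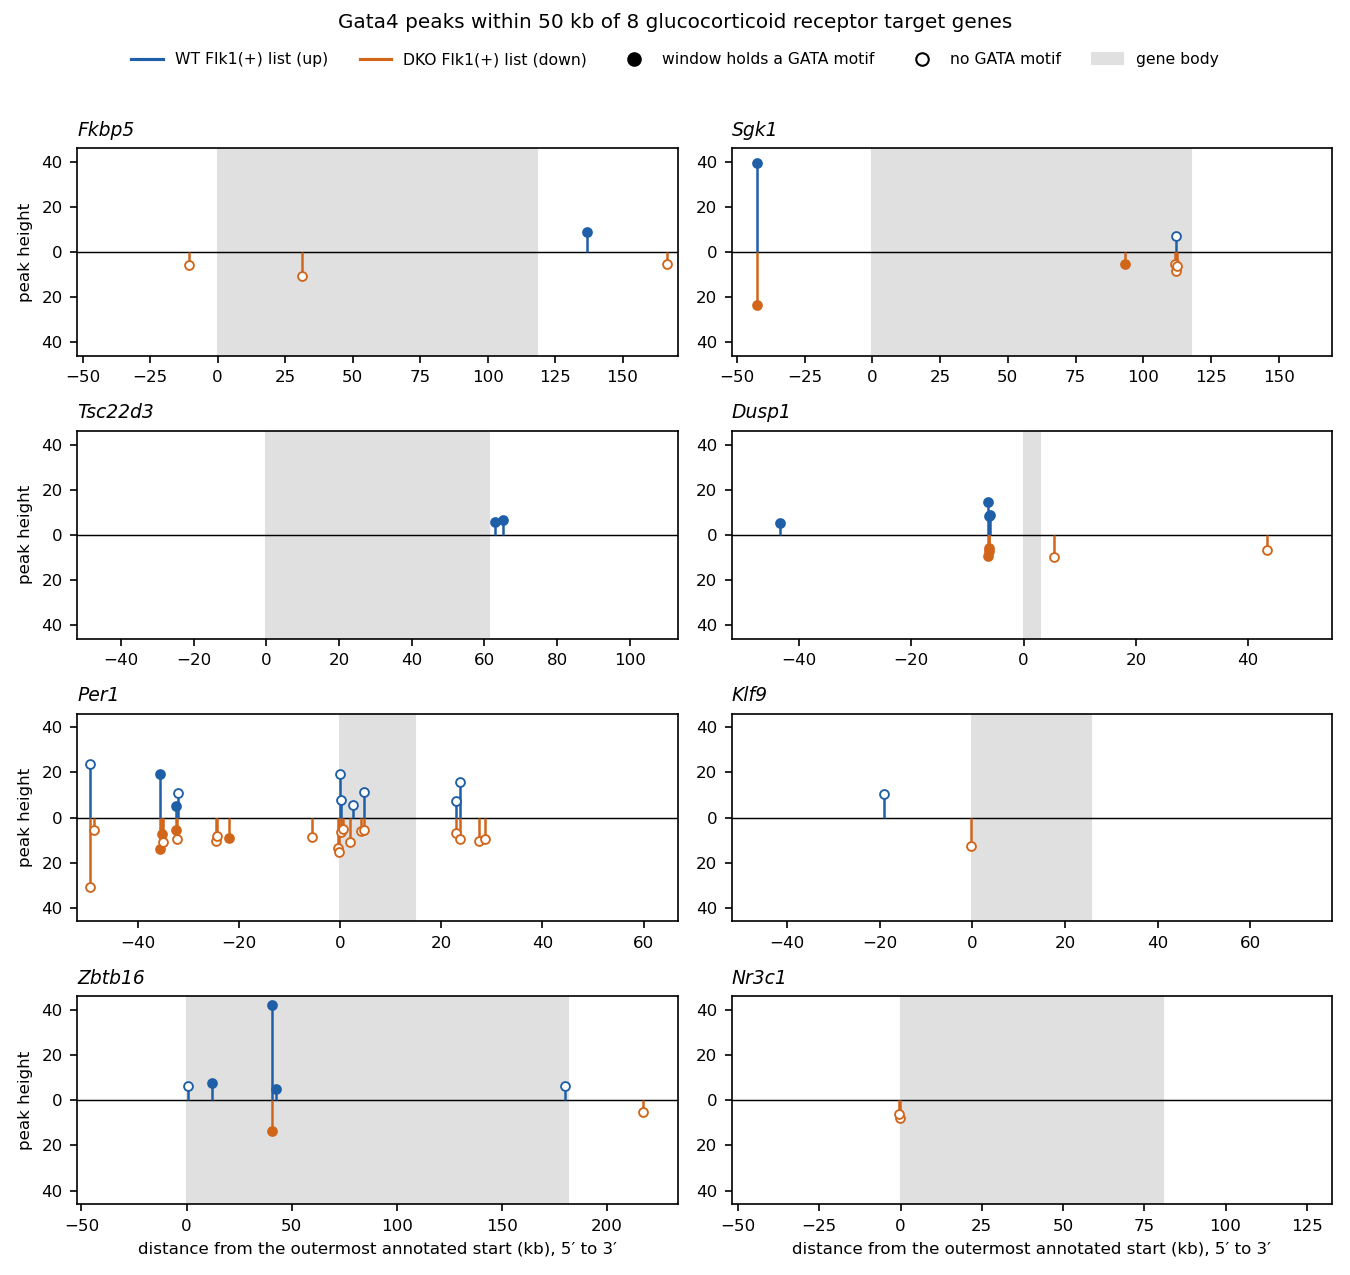
Peaks around each of the 8 genes, with height on the vertical axis (WT upward, DKO downward) and the distance in kb from the outermost annotated start on the horizontal axis, read 5′ to 3′. Filled circles mark windows with a GATA motif. The tallest WT peaks stand in an intron of Zbtb16 and far upstream of Sgk1, the tallest DKO peak at the left edge of the Per1 panel, Per1 has the most peaks, and Nr3c1 has only DKO peaks where Tsc22d3 has only WT peaks.

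Gene length bears on these counts. The 8 genes had a median length of 70.94 kb, against 15.51 kb for coding genes, and 5 of them fell in the longest of 5 length classes, in which 62.3% of genes had a WT peak and 66.3% a DKO peak within 5 kb. The shares of each gene's own length class summed to 4.13 genes for WT and 4.66 for DKO, beside the 4 and 7 found. Dusp1 was the gene for which a peak was least common by length, since 14.1% of genes of its class had a WT and 19.99% a DKO peak. The pair of counts within 5 kb was a common one for Fkbp5, Dusp1 and Klf9, which shared it with 2197 coding genes in all, and for Nr3c1 with 1045. It was less common for Tsc22d3 with 301 genes, Sgk1 with 227, Zbtb16 with 20 and Per1 with 9, each number including the gene itself.

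Among the genes that act on the receptor itself, both Nr3c1 and Fkbp5 had DKO peaks at CpG-rich starts and no WT peak within 5 kb. Nr3c1 (chromosome 18, 39570199 to 39650955, minus strand) encodes the glucocorticoid receptor. Its DKO peaks lay 169 and 519 bp upstream of its outermost start, and 4225 and 4575 bp from the gene by the study's own distances. The nearer had a height of 8.01 over 1.62 in DKO ES cells, and the farther 6.21 over 1.14. Their windows of 501 bp held 34 and 24 CpGs and no GATA motif, which was searched as AGATAA or TGATAA on both strands. Windows said below to hold no motif may still hold AGATAG or TGATAG, the form ending in G, which this search left out.

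Fkbp5 (chromosome 17, 28536040 to 28654469, minus strand) encodes a co-chaperone that lowers the receptor's affinity for its ligand. Its DKO peak at position 28623159 lay in an intron of the longest gene model, 65 bp upstream of an inner annotated start. It had a height of 10.8, an ES height of 2.47 and 65 CpGs in its window, the most of any peak near the 8 genes. Of the other DKO peaks in the 50 kb around Fkbp5, a peak of height 5.08 lay 189 bp upstream of the neighbouring start of Tead3, and a peak of height 5.69 lay 10539 bp upstream of Fkbp5 and was named for 4930511I11Rik. The WT peak in these surroundings lay 18587 bp beyond the 3′ end, with a height of 8.68, an ES height of 0.938 and 1 GATA motif. No position around Fkbp5 was thus common to both lists.

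The base composition under such a start is shown for Fkbp5 (mm9, plus strand, chr17:28623099-28623219) beside that of Klf9 (chr19:23215315-23215435), the 121 bases around each DKO peak, with the C and G of each CpG in capitals.
Fkbp5: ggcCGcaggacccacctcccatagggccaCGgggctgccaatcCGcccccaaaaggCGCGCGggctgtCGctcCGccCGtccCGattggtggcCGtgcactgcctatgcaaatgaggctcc
Klf9: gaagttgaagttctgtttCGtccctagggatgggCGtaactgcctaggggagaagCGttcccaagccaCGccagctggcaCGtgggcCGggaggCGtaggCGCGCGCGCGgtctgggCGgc
These stretches held 11 and 13 CpGs, and neither held a GATA motif. Klf9 (chromosome 19, 23215716 to 23241401, plus strand) encodes a zinc finger repressor induced by glucocorticoids in many tissues. Its DKO peak lay 341 bp upstream of the start, with a height of 12.7, an ES height of 2.05, an enrichment of 6.19 and rank 2590 in its list, in which rank 1 is the strongest. The WT list had no peak there. Its peak around Klf9 lay 19191 bp upstream, with a height of 10.3 over 1.78, 12 CpGs and no GATA motif, but 1 match to the form ending in G.

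Zbtb16 and Sgk1 carried the tallest WT peaks of the set, and both of these were far from the outermost starts, common to both lists and centred close to GATA motifs. In the DKO list the tallest was a peak of 30.8 in the surroundings of Per1, followed by that of Sgk1. Zbtb16 (chromosome 9, 48462416 to 48644050, minus strand) encodes PLZF, a zinc finger transcription factor strongly induced by glucocorticoids. The peak in its intron, 40624 bp from the start, had a WT height of 42.3 and a DKO height of 13.5 at positions 18 bp apart. The ES heights at these positions were 7.16 for WT and 2.21 for DKO, and the enrichments were 5.90 and 6.11. An ES height at or above that of the Zbtb16 position was found for 0.985% of WT peaks and, for its DKO ES height, for 22.3% of DKO peaks. The lists ranked it 1068 in WT and 2409 in DKO. The other WT peaks in Zbtb16 had heights of 6.34, 5.14, 7.78 and 6.10, and none overlapped a DKO peak. That of 6.10 lay 715 bp inside the start, with 43 CpGs and no GATA motif. The peak of 5.14 held 2 GATA motifs, that of 7.78 held 1 and that of 6.34 none. A further DKO peak, of height 5.26 and without the motif, lay 35570 bp beyond the 3′ end.

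Sgk1 (chromosome 10, 21601990 to 21719709, plus strand) encodes a kinase that acts on ion channels and cell survival. The distal peak lay 42722 bp upstream of the outermost Sgk1 start, at positions 21559268 in WT and 21559243 in DKO. It reached a height of 39.3 over 2.30 in WT ES cells and 23.4 over 1.81 in DKO ES cells. With enrichments of 17.1 and 12.9 and ranks of 142 and 206, it was the highest-ranked position of the 8 genes in either list. At over 5 kb from any gene it was named for none by the study. The second cluster at Sgk1 lay around inner starts of the gene, with 1 WT peak of height 7.21 and 3 DKO peaks of heights 5.25, 8.56 and 6.37. Their windows held 31 to 49 CpGs and no GATA motif. The remaining DKO peak near the gene, of height 5.28, lay in an intron with 7 CpGs and 1 GATA motif.

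Dusp1 (chromosome 17, 26642535 to 26645464, minus strand) encodes a phosphatase that switches off MAP kinases. A cluster 5910 to 6389 bp upstream of its start, just outside the 5 kb that would have named it for Dusp1, held 3 WT and 3 DKO peaks. The WT heights were 8.69, 8.43 and 14.7, and the DKO heights were 5.88, 7.27 and 9.25. Each of the 6 windows held a GATA motif, but the windows overlap and share motifs. The DKO list also had a peak 2447 bp beyond the 3′ end that the WT list lacked, with a height of 9.95 over 1.10, rank 1450, 9 CpGs and no GATA motif. This was the peak that placed Dusp1 among the DKO genes at 5 kb, whereas the cluster at the upstream site was common to both lists. Farther out, a WT peak of height 5.19 with 1 GATA motif lay 43318 bp upstream and a DKO peak of height 6.90 with none lay 40382 bp downstream.

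Tsc22d3 (chromosome X, 137074067 to 137135198, minus strand) encodes GILZ, a leucine zipper protein that carries part of the anti-inflammatory action of glucocorticoids. Its WT peaks lay 3962 and 1679 bp beyond the 3′ end. Their heights were low, at 6.76 and 5.77, and so were the WT ES heights, at 0.198 and 0.702. The windows held 4 and 6 CpGs and 2 and 1 GATA motifs. The X chromosome held 337 WT peaks (1.65% of the list) and 246 DKO peaks (1.08%).

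The GATA motifs of these distal positions are shown in capitals in the 121 bases around 1 peak of each gene, on the mm9 plus strand, where TTATCA and TTATCT are the reverse complements of the motifs. The windows are chr10:21559208-21559328 for Sgk1 (WT peak), chr9:48603366-48603486 for Zbtb16 (WT peak), chr17:26651640-26651760 for Dusp1 (the DKO peak of height 7.27) and chrX:137070045-137070165 for Tsc22d3 (the taller WT peak).
Sgk1: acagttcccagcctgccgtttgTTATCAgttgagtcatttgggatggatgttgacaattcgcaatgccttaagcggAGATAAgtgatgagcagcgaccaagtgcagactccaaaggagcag
Zbtb16: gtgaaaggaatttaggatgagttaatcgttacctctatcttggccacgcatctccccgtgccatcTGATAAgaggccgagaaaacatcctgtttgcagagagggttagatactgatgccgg
Dusp1: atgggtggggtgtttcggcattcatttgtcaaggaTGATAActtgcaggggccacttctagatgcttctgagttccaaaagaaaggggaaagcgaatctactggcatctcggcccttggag
Tsc22d3: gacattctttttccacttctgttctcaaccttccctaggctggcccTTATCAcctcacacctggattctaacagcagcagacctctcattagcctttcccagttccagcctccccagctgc
The centre of the nearest motif stood 18.5 bp from the WT and 10.5 bp from the DKO peak position at Sgk1. At Zbtb16 these distances were 7.5 and 10.5 bp. The motif shown for Dusp1 stood 22.5 bp from its peak, and that for Tsc22d3 11.5 bp. The Sgk1 stretch also holds TGAGTCA, an AP-1 sequence, next to its left-hand GATA motif.

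Per1 (chromosome 11, 68908719 to 68923462, plus strand) encodes a clock protein that glucocorticoids induce directly, and it differed from the other genes in the number of its peaks. Within 50 kb it had 10 WT and 22 DKO peaks, numbers reached by 1.14% and 0.135% of coding genes. At its promoter, taken as the outermost annotated start, a WT peak lay 118 bp upstream, with a height of 19.5 over 2.10 and rank 1348. The DKO peak beside it lay 175 bp upstream, with a height of 15.1 over 1.91 and rank 1207. By the study's own distances these peaks lay 3857 and 3914 bp from Per1. This promoter position was thus marked to a like rank in both lists. It held 25 CpGs and neither AGATAA nor TGATAA, but 1 match to the form ending in G.

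The other WT peaks within 5 kb of Per1 lay inside the gene and had heights of 7.98, 5.68 and 11.1. The remaining DKO peaks at Per1 had heights from 5.19 to 13.7, and 5 of these 6 lay inside the gene. None of the 11 peaks within 5 kb of Per1 held AGATAA or TGATAA. The form ending in G occurred 1 time each in the WT windows at 68908601 and 68908807. It also occurred 1 time each in the DKO windows at 68908373, 68908544, 68908798 and 68910644. The other windows within 5 kb of Per1 held neither form. Outside the 5 kb lay 6 WT and 15 DKO peaks, every one of them named by the study for neighbours in this gene-dense stretch, which were Aurkb, 2310047M10Rik, Tmem107, Vamp2 and Hes7, with Aloxe3 beside Hes7 at 2 DKO peaks. The tallest of them, at 23.6 in WT and 30.8 in DKO, lay 79 and 97 bp from the start of Aurkb. A DKO peak of height 10.8 lay 221 bp from the start of another neighbour, 9330160F10Rik. Of these outlying peaks, 2 WT and 4 DKO windows held a GATA motif.

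The promoter peak of Per1 is shown as a tall peak without AGATAA or TGATAA, in the 121 bases around the WT position (mm9, plus strand, chr11:68908541-68908661). No letter is in capitals because neither was found there. The bases do include CTATCA, the reverse complement of TGATAG, a form ending in G that the main search left out.
Per1: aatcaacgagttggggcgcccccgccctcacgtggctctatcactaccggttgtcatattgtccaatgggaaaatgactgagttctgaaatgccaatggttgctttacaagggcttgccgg
The stretch holds the E-box core CACGTG near its left end and CCAAT, letters that were looked for after the sequences had been seen.

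Across the 8 genes a position was common to both lists about as often as elsewhere in DKO and more often in WT, and Per1 set that difference. Peaks were taken as overlapping when their windows of 501 bp shared at least 1 bp. Of the WT peaks 15 of 25 (60%) overlapped a DKO peak, beside 45.6% of the WT list, and of the DKO peaks 18 of 40 (45%) overlapped a WT peak, beside 45.1%. Without Per1 the shares were 6 of 15 (40%) and 7 of 18 (38.9%). Merged into distinct stretches, the peaks within 50 kb made 39 regions, of which 11 held peaks of both lists, 10 of WT only and 18 of DKO only. A GATA motif lay in 5, 6 and 2 of these, in that order. Per1 gave 7 of the regions of both lists, 1 of WT only and 9 of DKO only. Peaks of the whole lists were not merged in this way, so the region counts have no background. Single windows of the whole lists held a GATA motif in 61.9% for WT and 38.1% for DKO.

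Where peaks of the lists could be paired as each other's nearest within 500 bp, 14 pairs belonged to the genes, 9 of them to Per1. The WT height was the larger in 12 of the 14 (85.7%), with a median ratio of WT to DKO of 1.37 and a range from 0.768 to 3.13. Over all 8489 pairs the WT height was the larger in 71.9%, with a median ratio of 1.24 and a central range, from the 5th to the 95th percentile, of 0.678 to 2.80. The ratios of the 8 genes therefore had the direction of the lists as a whole, in which heights may not share a scale. The intron of Zbtb16 gave the highest ratio, at 3.13, which 97% of pairs did not reach, and its ES heights had a ratio of 3.24. At the Aurkb start, by contrast, the ratio was 0.768, while the ES heights differed little, at 6.58 and 6.61.

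**Figure D2:**
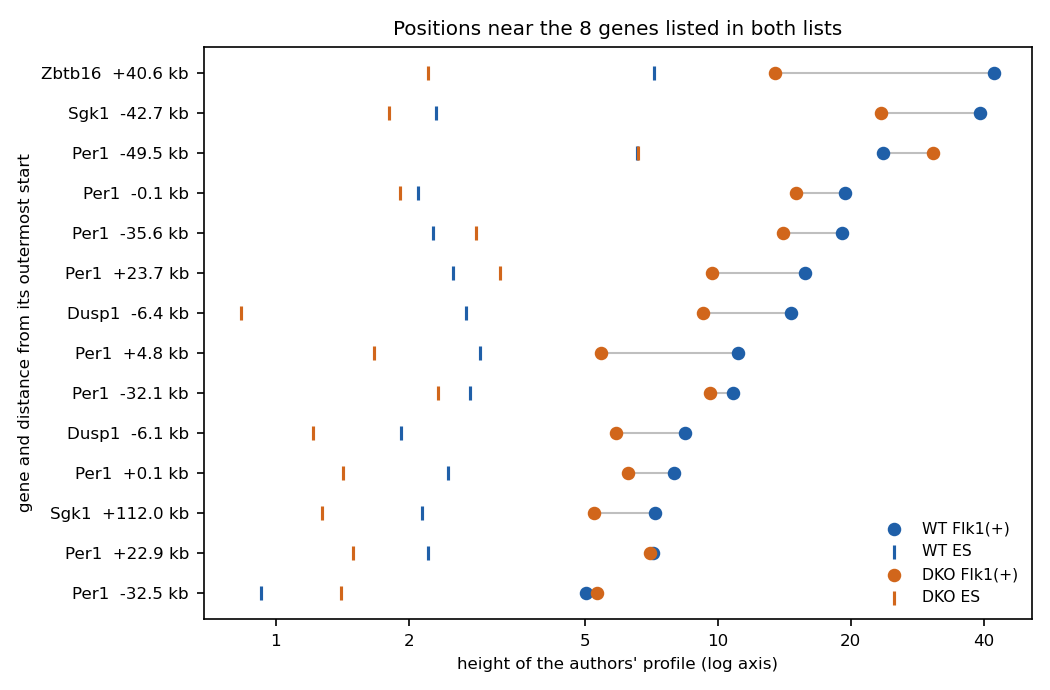
Heights at the 14 positions near the 8 genes that both lists hold, on a log axis, with circles for the Flk1(+) libraries and ticks for the ES libraries, WT in blue and DKO in orange. Circles lie right of both ticks at every position, which for the tick of the same genotype was required by the peak calling. The WT circle lies farther right in 12 of 14, and the gap is widest in the Zbtb16 intron.

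GATA motifs were found in 13 of the 25 WT windows (52%) and in 10 of the 40 DKO windows (25%). The whole lists held it in 61.9% of WT and 38.1% of DKO windows, and both shares near the 8 genes were the lower. Without Per1 the direction turned for WT, at 11 of 15 windows (73.3%), and stayed for DKO, at 6 of 18 (33.3%). Windows of the same length 2 kb to either side of these peaks held the motif in 30% (15 of 50) for WT and 31.25% (25 of 80) for DKO, beside 41.1% and 38.8% for the flanks of all peaks of the lists. Within 5 kb the motif lay in 5 of 12 WT windows (41.7%) and 2 of 17 DKO windows (11.8%). The WT windows with a motif near the genes belonged to Tsc22d3 and Zbtb16, and the DKO windows were the shared intronic peak of Zbtb16 and the lone intronic peak of Sgk1.

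The motif followed the place of the peak. A peak within 1 kb of an annotated start of its own gene was found for 3 of the 8 genes in WT (Per1, Zbtb16 and Sgk1) and for 5 in DKO (Fkbp5, Per1, Sgk1, Klf9 and Nr3c1), beside 23.5% and 36.7% of coding genes. Counting starts of any coding gene, 7 WT peaks and 21 DKO peaks lay this close to one. Of these, 1 of 7 WT windows and 2 of 21 DKO windows held a GATA motif, where the lists held it in 22.9% and 15.0% of such windows. Of the peaks farther from a start, 12 of 18 WT windows (66.7%) and 8 of 19 DKO windows (42.1%) held it, where the lists held it in 77.0% and 61.1%. Median CpG numbers per window were 12 for WT and 21 for DKO near the 8 genes, and 8 and 21 in the lists. Peaks at starts made up 27.9% of the WT list and 49.9% of the DKO list, and the part of this in the motif shares was not tested.

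**Figure D3:**
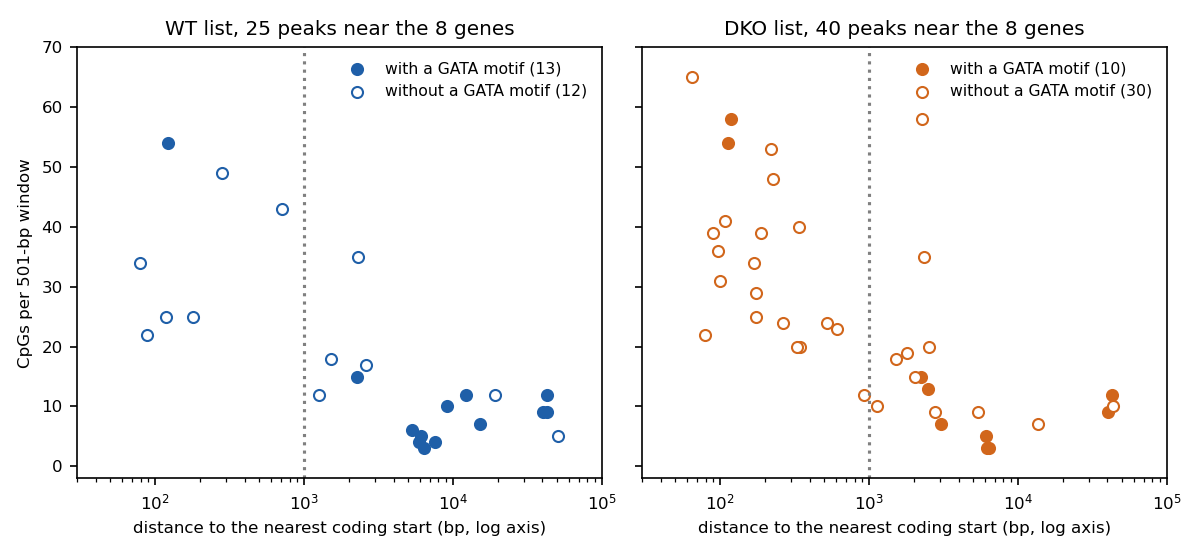
Number of CpGs in each 501-bp window against the distance of the peak from the nearest coding start in bp (log axis), for the 25 WT and 40 DKO peaks within 50 kb of the 8 genes, filled where the window holds a GATA motif. Left of the dotted line at 1 kb the windows hold 12 to 65 CpGs, and 1 of 7 in WT and 2 of 21 in DKO are filled. Right of it 12 of 18 and 8 of 19 are filled, and 1 DKO window there holds 58 CpGs.

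Glucocorticoid response elements were looked for in the same windows, first in a relaxed form made of the half-sites GNACA and TGTNC with 3 bases between them. No WT window of the 8 genes held it, and 2 of 40 DKO windows (5.0%) did, beside 0.559% of all WT and 0.845% of all DKO peaks. Both belonged to introns of Per1. The DKO peak at 68910644 had a height of 10.7 over 2.39, with the element 59 bp from it, and the DKO peak at 68912776 had a height of 5.84 over 1.02, with the element 149 bp from it. WT peaks lay 598 and 549 bp from these elements. The elements are shown in capitals in 41 bases of the mm9 plus strand, chr11:68910565-68910605 and chr11:68912905-68912945.
Per1 near 68910644: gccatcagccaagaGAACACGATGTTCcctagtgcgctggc
Per1 near 68912776: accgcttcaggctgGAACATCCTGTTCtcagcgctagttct
The strict form, half-sites AGAACA and TGTTCT with the same spacing, was in no window of the 8 genes, and in 7 windows of the WT list and 3 of the DKO list.

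On mm9, 49 relaxed elements lay within 50 kb of the 8 genes, 25 of them within 5 kb. Of the 49, none lay within 250 bp of a WT peak and 2 of a DKO peak, where 0.263% and 0.431% of the 43653 relaxed elements of the genome did. At these shares a count of 0 says nothing particular of the 8 genes. The strict form occurred 3 times, once in Sgk1 and at 2 places in introns of Fkbp5. The Sgk1 element lay 465 bp from the WT and 290 bp from the DKO peak at the inner starts. The Fkbp5 elements lay 39820 and 61918 bp from a WT peak, and 65886 and 43788 bp from a DKO peak. All 3 lay outside the windows of both lists, as did nearly all of the 639 strict elements of the genome, of which 1.10% had a WT and 0.470% a DKO peak within 250 bp.

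Half-sites are short, and AGAACA alone was in 10 of 25 WT windows (40%) and 13 of 40 DKO windows (32.5%), beside 30.5% and 24.6% of the lists. Promoters from RefSeq (build GRCm38.p6, 250 bases before to 50 after a start) matched 6 of the 8 genes, with 14 promoters. Among these, 2 held a GATA motif (14.3%), both of Sgk1, beside 18.6% of 32851 promoters. A relaxed element was in 1 of the 14, also of Sgk1, beside 0.475% of all promoters.

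Sequences of other factors were searched after the windows had been seen, so their counts describe what was noticed. AP-1 sites (TGACTCA or TGAGTCA) were in 5 of 25 WT windows (20%, list 13.6%) and 6 of 40 DKO windows (15.0%, list 12.3%), among them the distal peaks of Sgk1 and Dusp1 in both lists. The E-box CACGTG, which clock factors and Myc family proteins can bind, was in 5 WT windows (20%, list 9.11%), all of Per1 and its neighbours, and 8 DKO windows (20%, list 12.1%), among them the start peaks of Per1, Klf9, Fkbp5 and Nr3c1. CCAAT was in 12 WT windows (48.0%, list 48.7%) and 21 DKO windows (52.5%, list 44.2%). Windows that overlap, as at the Dusp1 cluster and the Per1 start, can share a site and were counted separately.

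Other genes of the glucocorticoid response, in a list of 26 of which 25 could be placed, had the same tilt towards the DKO list as the 8 genes. Peaks within 5 kb were found for 7 of them in WT (28%) and 15 in DKO (60%), and the 7 were all among the 15. Beside the background of 39.4% and 49.1%, the WT share was the lower and the DKO share the higher. The tallest WT peaks were those of Foxo3, a transcription factor of stress and atrophy programmes, with 17.0 in WT and 12.2 in DKO, and of Rgs2, a brake on G protein signalling, with 10.8 and 9.56 and 2 GATA motifs in each window. Bcl6, a repressor of lymphocyte genes, followed with 9.68 and 6.45, then Hif3a with 9.63 and 12.8, Irs2, an adaptor of the insulin receptor, with 9.53 and 25.7, and Scnn1a, a subunit of the epithelial sodium channel, with 8.15 and 9.24. The tallest peaks of Bcl6 and Hif3a lay at CpG-rich starts without the motif. The 2 heights of a gene are each list's own tallest and need not come from the same place. At Irs2 the WT window held 17 CpGs and the DKO window 66, and at Scnn1a they held 5 and 0, so these were different positions.

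Chaperones, coregulators and enzymes of the ligand, 18 genes that serve the receptor, had peaks within 5 kb in 13 cases for WT (72.2%) and 16 for DKO (88.9%). Hsd11b2, which inactivates glucocorticoids, had the tallest WT peak of these, with heights of 31.0 in WT and 14.7 in DKO and 2 GATA motifs in each window. Others were Nr3c2, the mineralocorticoid receptor, with 12.99 and 11.4, the Mediator subunit Med1 with 10.8 and 10.4, the chaperone Hspa8 with 10.7 and 7.76 and the coactivator Ncoa3 with 10.6 and 11.1. Among 24 reference genes with known GATA input, 17 had a WT peak (70.8%) and 19 a DKO peak (79.2%). Their tallest peaks within 5 kb were 71.8 and 41.3 at Zfpm1 (a GATA cofactor), 39.7 and 28.2 at Kdr (which encodes Flk1) and 31.2 and 19.3 at Col4a1. By the same rule Zbtb16 had 42.3 and 13.5, and Sgk1 had 7.21 and 8.56. The distal Sgk1 peak, of 39.3 and 23.4, lay beyond 5 kb and so is not a like comparison. Gata6 with 21.2 and 12.3, Gata2 with 21.1 and 15.6 and Myocd with 19.7 and 10.1 came next, close to the Per1 promoter. Here too the heights are each list's own tallest, and at Ncoa3, Zfpm1, Kdr and Myocd they came from different positions. The share of genes with a DKO peak was thus higher than the share with a WT peak in all 4 lists and over all coding genes.

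**Figure D4:**
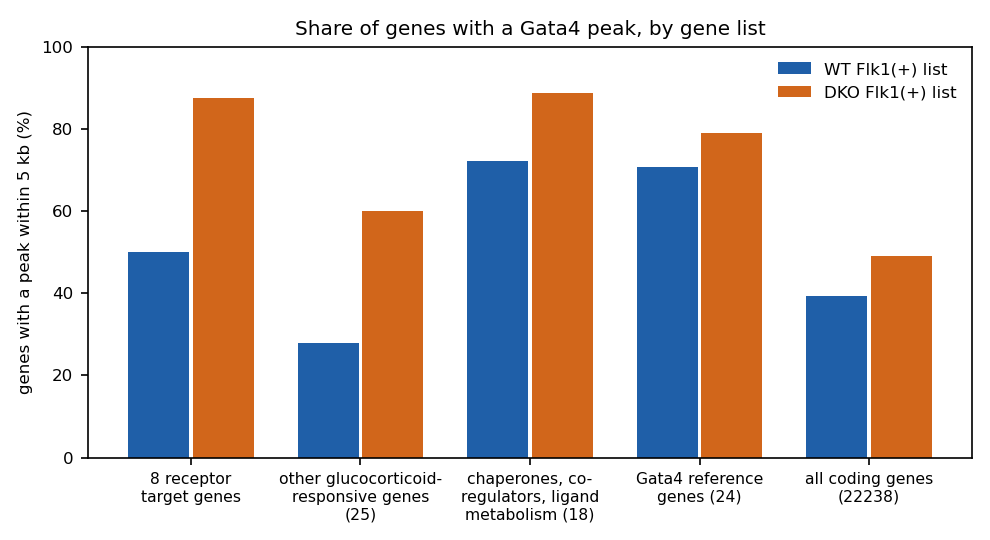
Share of genes, in percent, with a peak within 5 kb in the WT (blue) and DKO (orange) list, for the 8 genes, 3 comparison lists and all 22238 coding genes. The orange bar is the taller in each group, and the gap is 4 against 7 genes for the 8 and 39.4% against 49.1% for all coding genes.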

How the data were processed

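Gata4 ChIP-seq peak lists of WT and DKO Flk1(+) cells, each called against the ES library of its genotype, were analysed. The authors had reads mapped to mm9 (CASAVA 1.8.1 and cutadapt are named in the submitters' processing notes; aligner not given in the sources used here) and called peaks with DNAnexus tools. For each peak they deposited 2 signal heights, their ratio (enrichment), the −log10 of a q-value, a rank score, a position and 501 bases, which matched mm9 at every peak. No column names a library, so a list was matched to its genotype through the peak number that the study states.

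Gene positions were those of GENCODE vM1, 1 entry per symbol, the longest. Motifs were searched on both strands. The enrichment, heights and ranks were used as deposited, and no test was made, because each condition had 1 library. Counts stand beside those of all coding genes or all peaks. The GATA and response element searches, the overlap and the gene assignment were checked on simulated data. Named were all 8 genes, with their peaks given singly or as counts and ranges. Neighbours were named whose start lay within 1 kb of such a peak or which alone were named for it. Of each other list at most 6 genes were named, those with the tallest WT peak among genes with peaks of both lists. One gene covered by this is not reported here. The 8 genes, the lists and the motifs were chosen with earlier results of these data known. AP-1, E-box and CCAAT searches and the values without Per1 were added after the data were seen. Cebpd had no position, and 2 of the 8 genes had no promoter entry. Python 3.11.15, NumPy 2.4.6, pandas 2.3.3, SciPy 1.17.1 and pysam 0.24.0 were used.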

Additional observations from a re-analysis of the deposited data

How the results depend on the processing

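No paired analysis was possible because each condition had 1 library, and for the same reason no value carries a replicate error. The number of the 8 genes with a WT peak was 4 at 5 kb, 7 at 20 kb and at 100 kb, and 2 when 5 kb was measured from the outermost start site; for DKO the latter gave 3 in place of 7. The number of genes with a peak within 50 kb stayed between 5 and 7 in both lists under every alternative run. Peaks within 50 kb went from 25 to 12 in WT and from 40 to 25 in DKO with the higher-ranked part of each list, to 15 and 14 with an enrichment of at least 5, and to 15 and 18 without Per1. The share of WT peaks overlapping a DKO peak went from 60% to 40% without Per1, and that of DKO peaks from 45% to 30% against the higher-ranked part of the WT list. GATA motifs that may also end in G raised the WT share from 52% to 72% and the DKO share from 25% to 42.5%. Leaving out Per1 gave 73.33% for WT, above the share of the whole list, and peaks within 5 kb gave 11.76% for DKO. The response element was in 0% of WT and 5.0% of DKO windows in its relaxed form, in 0% and 0% in its strict form and in 40% and 32.5% as a half-site. Of 50 alternatives in all, 31 left the value within the limits set for calling it unchanged and 19 moved it. The DKO Flk1(+) library was the deeper by the study's methods and the depth was not matched here, so a gene without a peak is one without a call at the authors' thresholds.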
